A study of Homo sapiens with 16 samples.

Results

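The small proline-rich protein genes SPRR1A, SPRR1B, SPRR2A, SPRR2D, SPRR2F and SPRR3 were followed through 45 h of HER2 inhibition in SUM-225 cells. SUM-225 is an established breast cancer line in which HER2, the product of ERBB2, is amplified and over expressed. Every probe carrying one of these 6 symbols was taken, which gave 6 of the 24526 probes on the array, 1 for each gene, and all 6 entered the fit. The 6 genes were selected on measured values, their low levels late in this same time course, so their decline is a description here, with no test. All cultures received 1 µM CP724,714, a small molecule inhibitor of the HER2 kinase. They were grown in Ham's F-12 with 5% fetal bovine serum, 5 µg/ml insulin and 1 µg/ml hydrocortisone. RNA was taken from parallel cultures at 16 time points, at intervals of 3 h from 0 to 45 h, and each time point was measured on 1 Illumina bead array. The 0 h culture was the only one without time in the inhibitor, there were no replicates, and no untreated time course was analysed here. Effects of the inhibitor, of time in culture and of the medium change at the start of treatment cannot be told apart. In total RNA from a culture, fewer cells that express a gene and less of its RNA in each cell cannot be told apart either.

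The median signal intensity of the arrays lay between 242 and 384, with the highest median at 27 h, and 57.5% to 61.5% of probes were detected, that is, had a detection p-value under 0.05. Each probe's signal was corrected for background, quantile normalized and put on a log2 scale. In the same cells ERBB2, GRB7, KRT8, KRT19, CDH1 and FOXA1, markers of a HER2-amplified luminal epithelium, were detected on 16 of 16 arrays. VIM, PTPRC and TP63 were not detected on any array, and the basal keratin KRT14 was detected on 3. KRT5, its basal partner, was detected on 16, with signals of 4200 at 0 h and 1781 at 45 h, and fell with a linear change of -1.28 ± 0.20 (SE, limma, adjusted p = 2.36e-05), and its part in the SPRR values was not tested. The stromal marker COL1A1 was detected on 5 arrays and the endothelial marker PECAM1 on 16, with signals of 430 at 0 h and 284 at 45 h. The arrays also fell into 4 sets of 4 consecutive time points, which begin at 0, 12, 24 and 36 h. The labels name no such batch. These sets were noticed in earlier results of these data, and values within them are given where they matter.

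SPRR proteins are precursors of the cornified envelope, the crosslinked protein shell that forms beneath the membrane of terminally differentiating squamous cells. Transglutaminases join their glutamine- and lysine-rich ends to loricrin, involucrin and other envelope proteins, and the central proline-rich repeats act as flexible bridges. Their genes lie together in the epidermal differentiation complex of chromosome 1, among the genes of loricrin, involucrin, filaggrin, the late cornified envelope proteins and the S100 proteins. SPRR1 and SPRR2 are known from stratified epithelia and from keratinocytes under stress, SPRR3 from the lining of the mouth and oesophagus, and simple and glandular epithelia can express them after injury. The SPRR2 genes are recent duplicates of one another with closely similar transcripts.

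The promoters are shown as a description of the genes, and any link between them and the courses below was not tested. Each line gives the 150 bases before the transcription start from RefSeq (GRCh38.p14), 5′ to 3′ on the gene's own strand, for the 5 of the 6 genes that had an entry. SPRR2D had none. Capitals mark matches, on either strand, to an AP-1 site (TGANTCA), an ETS motif (AGGAAG), an octamer (ATGCAAAT), a KLF and SP motif (CCACCC) and a TATA box (TATAAA), factor sites studied in SPRR promoters. The shorter ETS core, GGAA, was not searched or marked. None of these marked matches overlaps another.
SPRR1A, chr1:152983931-152984080, plus strand: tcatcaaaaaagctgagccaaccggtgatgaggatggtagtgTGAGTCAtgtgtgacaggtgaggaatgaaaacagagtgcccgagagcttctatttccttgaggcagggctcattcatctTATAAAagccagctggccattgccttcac
SPRR1B, chr1:153031053-153031202, plus strand: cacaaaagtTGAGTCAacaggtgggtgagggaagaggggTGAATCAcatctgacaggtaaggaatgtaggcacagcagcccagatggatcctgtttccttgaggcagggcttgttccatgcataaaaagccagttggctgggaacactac
SPRR3, chr1:153001599-153001748, plus strand: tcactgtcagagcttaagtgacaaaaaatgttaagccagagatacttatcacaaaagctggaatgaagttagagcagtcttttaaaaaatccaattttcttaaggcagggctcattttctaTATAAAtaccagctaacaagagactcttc
SPRR2A, chr1:153057513-153057662, minus strand: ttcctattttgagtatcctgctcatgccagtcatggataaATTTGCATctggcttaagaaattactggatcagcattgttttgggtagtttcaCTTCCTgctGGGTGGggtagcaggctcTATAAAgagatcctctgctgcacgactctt
SPRR2F, chr1:153113517-153113666, minus strand: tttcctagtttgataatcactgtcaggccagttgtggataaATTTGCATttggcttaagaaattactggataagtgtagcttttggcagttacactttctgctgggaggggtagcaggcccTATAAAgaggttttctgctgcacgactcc
The AP-1 motif was found in SPRR1A, at 108 to 102 bases before the start, and at 2 places in SPRR1B, at 141 to 135 and 111 to 105. Of 35116 RefSeq promoters of this length, 4.17% held it. The octamer was found in SPRR2A, at 110 to 103 bases, and in SPRR2F, at 109 to 102, and 0.988% of all promoters held it. SPRR2A alone of the 5 held the full AGGAAG, at 57 to 52 bases, and the KLF and SP motif, at 48 to 43, which 18.8% and 21.7% of all promoters held. The TATA box was found in SPRR1A, SPRR2A, SPRR2F and SPRR3, and 6.71% of all promoters held it. Aligned over these 150 bases, SPRR2A and SPRR2F were 82.9% identical and SPRR1A and SPRR1B 69.4%, while the other pairs among the 5 were between 50.6% and 58.6% identical. Gaps were allowed in the alignments, and the identities were not compared with those of unrelated promoters. The motif matches describe letters in a window and do not show that a factor bound there.

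All 6 probes ended the course below their start. The 3 SPRR2 probes stayed above a log2 level of 9.3 to 21 h, were 2.74-fold to 3.52-fold lower at 24 h than at 21 h, and were no longer detected at 45 h. SPRR1B and SPRR3 went down in smaller steps and were 7.01-fold and 6.82-fold lower at 45 h than at 0 h, and SPRR1A changed least.

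SPRR2D had the largest linear decline of the 16110 probes tested. Its normalized log2 level was 10.73, 10.80, 11.01 and 10.74 at 0, 3, 6 and 9 h, and 11.37, 11.12, 10.88 and 10.41 at 12, 15, 18 and 21 h. It was 8.68, 8.72, 8.12 and 8.30 at 24, 27, 30 and 33 h, and 7.62, 7.93, 7.35 and 6.21 at 36, 39, 42 and 45 h. The highest value was thus at 12 h, the largest step down came between 21 and 24 h, and a further one of at least 1.10 came between 42 and 45 h, the last value being below detection. In the deposited signal, before any correction, SPRR2D read 1770 on the 0 h array and 2781 at 12 h, then 2058 and 554 at 21 and 24 h, and 233 at 45 h, where its detection p was 0.0502. SPRR2D was at least 22.4-fold lower at 45 h than at 0 h, and at least 34.9-fold lower than at 12 h. For a probe not detected at 45 h such a bound takes the lowest value of any detected probe on the 45 h array in place of the probe's own level, unless the latter is higher. The linear change over 45 h, the first-order term of a cubic course, was -4.84 ± 0.33 on the log2 scale (SE of the fit over 16 arrays).

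SPRR2A followed the same outline. Its log2 level was 9.61, 9.84, 10.47 and 10.32 at 0, 3, 6 and 9 h, and 10.21, 10.12, 9.999 and 9.79 at 12, 15, 18 and 21 h. It was 7.98, 8.35, 7.39 and 7.19 at 24, 27, 30 and 33 h, and 7.21, 6.80, 6.74 and 5.93 at 36, 39, 42 and 45 h. SPRR2A went up by 0.86 from 0 to 6 h before it declined, and the 27 h array was slightly above the 24 h array. Its deposited signal was 883 at 0 h, went from 1415 to 403 between 21 and 24 h, and was 221 at 45 h, where its detection p was 0.0891. At 45 h SPRR2A was at least 10.3-fold lower than at 0 h and at least 18.7-fold lower than at 6 h, and its linear change was -4.53 ± 0.26 (SE), the third largest decline of all probes.

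SPRR2F was the flattest of the 3 SPRR2 probes up to 21 h. Its log2 level was 9.63, 9.52, 9.75 and 9.73 at 0, 3, 6 and 9 h, and 9.61, 9.89, 9.36 and 9.46 at 12, 15, 18 and 21 h. It was 8.01, 7.77, 7.72 and 7.20 at 24, 27, 30 and 33 h, and 6.85, 7.34, 6.95 and 6.13 at 36, 39, 42 and 45 h. The lowest of the 8 values up to 21 h was 9.36, and the highest of the 8 from 24 h on was 8.01. Its deposited signal was 891 at 0 h, went from 1166 to 408 between 21 and 24 h, and was 230 at 45 h, where the detection p was 0.0648. SPRR2F was at least 10.4-fold lower at 45 h than at 0 h, with a linear change of -3.80 ± 0.26 (SE).

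SPRR1B was the brightest of the other 3 probes at the start. Its log2 level was 10.70, 11.16, 11.31 and 11.19 at 0, 3, 6 and 9 h, and 10.84, 10.75, 10.34 and 10.39 at 12, 15, 18 and 21 h. It was 10.003, 9.55, 9.44 and 8.95 at 24, 27, 30 and 33 h, and 8.65, 8.80, 8.77 and 7.89 at 36, 39, 42 and 45 h. SPRR1B went up to 6 h and then down across all 4 sets of arrays, with its largest step, -0.88, between 42 and 45 h. It was detected on all 16 arrays, with a signal of 1741 at 0 h and 350 at 45 h, was 7.01-fold lower at 45 h than at 0 h and 10.7-fold lower than at 6 h, and changed by -3.23 ± 0.16 (SE).

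SPRR3 differed in its timing. Its log2 level was 10.12, 10.34, 10.52 and 10.58 at 0, 3, 6 and 9 h, and 9.52, 9.61, 9.48 and 9.59 at 12, 15, 18 and 21 h. It was 9.17, 8.86, 8.71 and 8.27 at 24, 27, 30 and 33 h, and 7.62, 7.62, 7.43 and 7.35 at 36, 39, 42 and 45 h. The largest step of SPRR3, -1.06, lay between 9 and 12 h, then came a level stretch to 21 h and a gradual decline after it. SPRR3 was detected on all 16 arrays, with a signal of 1210 at 0 h, 1634 at 9 h and 297 at 45 h. It was 6.82-fold lower at 45 h than at 0 h and 9.37-fold lower than at 9 h, with a linear change of -3.39 ± 0.19 (SE).

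SPRR1A stood apart from its close relative SPRR1B. Its log2 level was 10.40, 10.17, 10.23 and 10.24 at 0, 3, 6 and 9 h, and 10.03, 10.13, 9.94 and 10.11 at 12, 15, 18 and 21 h. It was 9.75, 9.79, 9.80 and 9.24 at 24, 27, 30 and 33 h, and 9.33, 9.65, 9.28 and 9.23 at 36, 39, 42 and 45 h. No early rise was seen, the 0 h array was the highest, and the largest step was -0.56, between 30 and 33 h. SPRR1A was 2.24-fold lower at 45 h than at 0 h, from a signal of 1428 to one of 617, and its linear change was -1.14 ± 0.13 (SE), which placed it 920th among the declines of all probes. The other 5 were ranked between 1st and 57th.

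**Figure D1:**
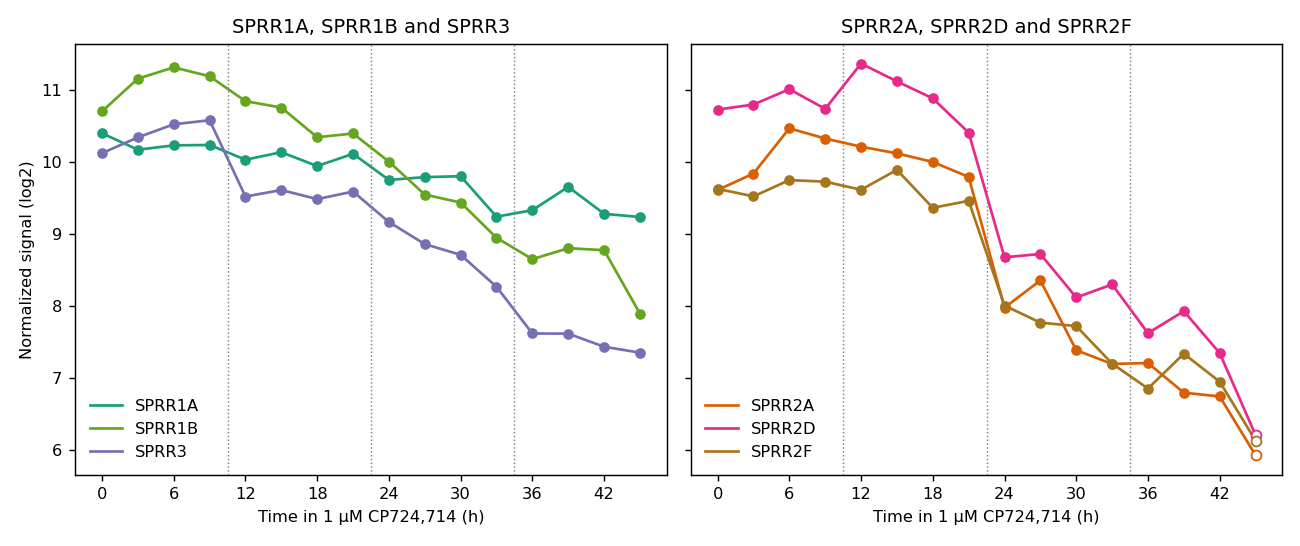
Normalized log2 signal of each SPRR probe against hours in 1 µM CP724,714, with 1 array per point, SPRR1A, SPRR1B and SPRR3 on the left and the SPRR2 genes on the right. Open points were not detected and dotted lines mark the borders between the sets of 4 arrays. The SPRR2 probes drop between 21 and 24 h and are open at 45 h, while SPRR1A does not go below 9.23.

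The median linear change of the 6 probes was -3.59, against 0.05 over all probes tested, and -2.56 without background correction. All 6 were past the adjusted threshold in the downward direction, as were 21.7% of all probes tested, but this contrast chose the genes and nothing is read from the count. The 6 probes also had every value from 24 h on below every value up to 21 h, which 2.67% of all probes did. As the genes were chosen for low late levels, nothing is read from this count either. On the deposited signal 4 of the 6 had no overlap between these periods. There SPRR1A reached 1595 and SPRR3 924.5 on the bright 27 h array, above their lowest earlier signals of 947.5 and 901.9.

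Early in the course SPRR2A, SPRR1B and SPRR3 were higher than at the start, and the other genes changed less. From 0 to 9 h the log2 change was 0.72 for SPRR2A, 0.49 for SPRR1B, 0.46 for SPRR3, 0.10 for SPRR2F, 0.01 for SPRR2D and -0.16 for SPRR1A. Their median was 0.28, against 0.02 for all probes.

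Between 21 and 24 h the log2 change was -1.82 for SPRR2A, -1.73 for SPRR2D and -1.45 for SPRR2F, which correspond to 3.52-fold, 3.32-fold and 2.74-fold lower levels. It was -0.42 for SPRR3, -0.39 for SPRR1B and -0.36 for SPRR1A. Thus 3 of the 6 probes, all of SPRR2 genes, were at least 2-fold lower at 24 h than at 21 h, and 0.912% of all probes were. Nothing is read from this count, because the genes were chosen for low late levels and the SPRR2 probes may read one another's transcripts. All probes had a median of -0.01 over this interval, and 90% of them lay between -0.59 and 0.59. Without background correction the same step was -1.32 for SPRR2A, -1.40 for SPRR2D and -1.03 for SPRR2F.

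Between 9 and 12 h SPRR3 was the 1 of the 6 that was at least 2-fold lower, with 1.79% of all probes, while SPRR2D was higher by 0.63, within the -0.69 to 0.64 that held 90% of all probes. Between 42 and 45 h SPRR2D was the 1 of the 6, with 2.03% of all probes, and nothing is read from these counts. The SPRR2 probes were not detected at 45 h, so their changes to that array are bounds, at least 1.10 lower for SPRR2D, 0.71 for SPRR2F and 0.50 for SPRR2A, while SPRR1B, which was detected, changed by -0.88. After the step at 24 h the decline went on, with changes from 24 to 45 h of -2.11 for SPRR1B, -1.81 for SPRR3 and -0.52 for SPRR1A. From 24 to 45 h SPRR2D was lower by at least 2.43, SPRR2F by at least 1.76 and SPRR2A by at least 1.73.

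**Figure D2:**
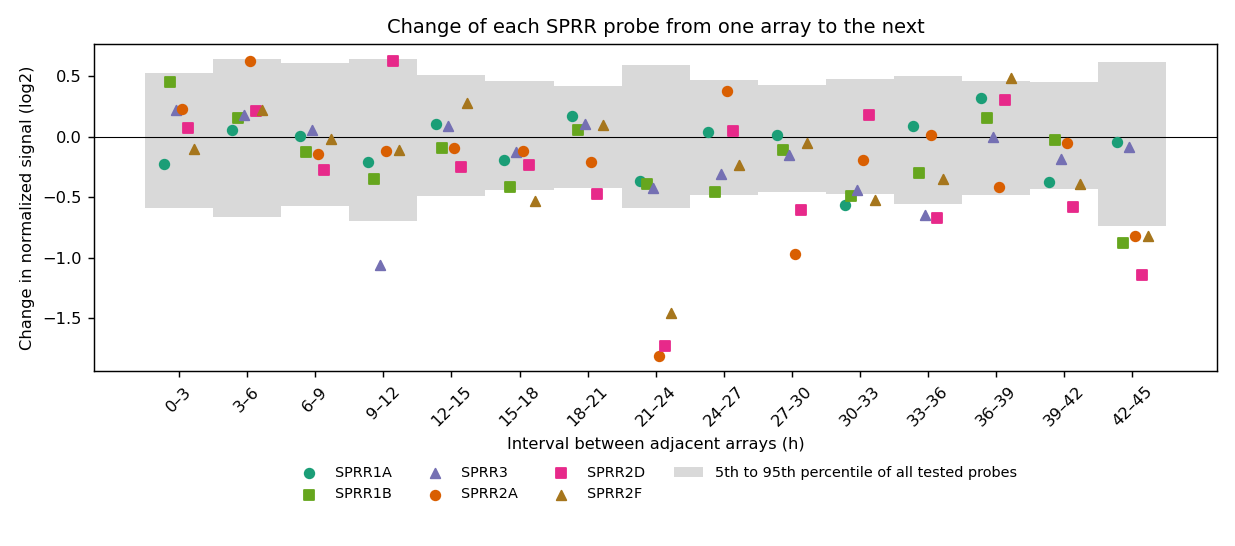
Change in normalized log2 signal of the 6 SPRR probes over each 3 h interval, with a grey bar for the 5th to 95th percentile of all tested probes. SPRR2A, SPRR2D and SPRR2F lie far below the bar at 21 to 24 h (-1.82 to -1.45), and SPRR3 lies below it at 9 to 12 h (-1.06). The points of the SPRR2 probes at 42 to 45 h end at values that were not detected.

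Both of these intervals are borders between the sets of 4 arrays, so at these points a step in time and a difference between sets cannot be told apart. Fitted within the sets, as a common slope in hours beside a level for each set, the linear change over 45 h was -3.54 ± 0.99 (SE) for SPRR2D, -2.18 ± 1.14 for SPRR2A, -2.14 ± 0.89 for SPRR1B and -2.06 ± 0.86 for SPRR2F. It was -0.96 ± 0.55 for SPRR1A and -0.82 ± 0.69 for SPRR3. The errors were larger than in the main fit, and that of SPRR3 was near the size of its value. Across the set that begins at 24 h each of the 6 ended lower than it began, by between -0.38 for SPRR2D and -1.06 for SPRR1B, and across the set that begins at 36 h each was lower again, from -0.10 for SPRR1A to at least 1.38 lower for SPRR2D. The linear changes of the SPRR2 probes use their measured 45 h values, which lie below detection. As the genes were chosen for low late levels, nothing is read from the sign they share within the sets.

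The mean log2 level of the 3 SPRR2 probes minus that of SPRR1A, SPRR1B and SPRR3 lay between -0.50 and 0.27 on the 8 arrays up to 21 h. It lay between -2.07 and -1.12 on the 8 arrays from 24 h on, with means of -0.14 and -1.45. These are differences between probes of unlike brightness, so their size on a single array is not read. The shift between the periods is a description. It lies at a border between the sets of arrays, and the genes were chosen for low late levels. The lowest value, -2.07, is that of the 45 h array, where the SPRR2 probes were not detected. Over the 16 arrays Pearson r between the 6 probes ranged from 0.90 to 0.99 in 15 pairs, with a median of 0.94. SPRR2D and SPRR2F had the highest (0.987), followed by SPRR2A with SPRR2D (0.984) and SPRR2A with SPRR2F (0.981). SPRR1B and SPRR3 had 0.973. These values share the arrays and a trend with time and are given without a test.

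Among 13017 other genes, the 5 whose course over the 16 arrays was most like the mean course of the 6 were KRT6C (r = 0.985, KRT6E on the array), LOC653499 (0.985), TMEM45A (0.981), SPRR2E (0.976) and SLC15A3 (0.975). KRT6C encodes a keratin of squamous epithelium closely related to KRT6A. Its signal was 6604 and 7520 on the 0 and 21 h arrays, and 3582 and 818 on the 24 and 45 h arrays. TMEM45A, a membrane protein, had signals of 3056, 3813, 2095 and 1021 on these arrays. SLC15A3, a transporter of histidine and small peptides, had 931, 1452, 621 and 398. LOC653499 had 1947, 2581, 1202 and 418. These are uncorrected signals, and the median of the whole array was 277.6 and 361 on the 0 and 21 h arrays, against 276 and 268 on the 24 and 45 h arrays.

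The other SPRR genes are described beside the chosen ones. SPRR2E fell with a linear change of -3.14 ± 0.22 (SE, limma, adjusted p = 9.64e-10). Its log2 level was 8.84, 8.91, 9.53 and 9.58 on the first 4 arrays, 9.16, 9.21, 8.86 and 9.40 on the next 4, 8.06, 8.15, 7.68 and 7.73 from 24 to 33 h and 6.76, 6.93, 6.80 and 6.19 on the last 4. Like the 3 chosen SPRR2 genes, it had its largest step, -1.34, between 21 and 24 h and was not detected at 45 h, at least 6.07-fold lower than at 0 h. Within the sets of 4 arrays its linear change was -0.04 and not past the threshold. SPRR2B and SPRR2C were not detected on any array, with signals of 175 to 257 and 154 to 227. SPRR2G was detected on 1 array, with signals of 174 to 275. SPRR4, detected on 3 arrays, changed by -0.28 ± 0.29 (SE, limma, adjusted p = 0.461). Of the neighbouring genes LELP1 was not detected and PRR9 had no probe. Thus of 7 further genes of the family and its neighbourhood 2 were tested, 1 fell and 0 rose, beside 21.7% and 26% of all probes. The SPRR2 transcripts are close enough for a probe of one to bind another, and the probe sequences were not used here, so the share of cross-hybridisation in SPRR2A, SPRR2D, SPRR2E and SPRR2F was not tested. SPRR2B, SPRR2C and SPRR2G stayed near background while those 4 read between 512 and 2781 up to 21 h. These values do not show how far those 4 probes read one another's transcripts.

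The listed genes of the envelope and of related functions went in both directions, as did all probes tested. Of 54 genes of envelope precursors, crosslinking enzymes and related proteins, 50 had a probe and 31 were tested, of which 9 fell, 8 rose and 14 did not pass the threshold. Their median linear change was 0.07, and of all probes tested 21.7% fell and 26% rose. The largest falls were of LCE3D, a late cornified envelope protein (-1.68 ± 0.23, adjusted p = 4.82e-06), SCEL, the envelope precursor sciellin (-1.27 ± 0.16, adjusted p = 2.06e-06), ALOXE3, a lipoxygenase of the epidermal lipid barrier (-1.22 ± 0.24, adjusted p = 0.000355), and CDSN, corneodesmosin (-1.18 ± 0.24, adjusted p = 0.000341). The largest rises were of CNFN, cornifelin (1.44 ± 0.12, adjusted p = 9.47e-09), CALML5, a calmodulin-like protein of differentiating keratinocytes (1.23 ± 0.13, adjusted p = 1.52e-07), TGM5, a transglutaminase (1.21 ± 0.13, adjusted p = 2.54e-07), and CSTA, the protease inhibitor cystatin A (1.14 ± 0.15, adjusted p = 5.27e-06). These are SEs and adjusted p-values from limma. The signal of CNFN went from 2881 at 0 h to 6734 at 45 h, while that of LCE3D went from 470 to 275. TGM1, the main transglutaminase of keratinocytes, also fell (-0.90 ± 0.23, limma, adjusted p = 0.00267).

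Loricrin, involucrin and filaggrin genes were at or near background, though many other genes of the envelope list were not. Of that list 23 genes were detected on all 16 arrays, and 15 of these were past the threshold. Loricrin (LOR) and filaggrin (FLG) were not detected on any array, nor were FLG2 and HRNR. Involucrin (IVL) was detected on 10 arrays, with a signal of 259 at 0 h and 231 at 45 h, and a linear change of 0.29 ± 0.25 (SE, limma, adjusted p = 0.361). Of 17 late cornified envelope genes 15 had a probe, 12 of these were not detected on any array and 3 were tested, LCE3D being the one that fell. With the sets of 4 arrays as a factor 0 envelope genes fell and 1, CNFN, rose (2.05, limma, adjusted p = 0.0326), and CDSN and ALOXE3 were at 0.59 each, the opposite sign.

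Keratins of activated and stratified squamous cells, whose filaments are attached to the envelope, included 4 with falls of over 2 on the log2 scale. Of 15 listed, 12 were tested, and 6 fell, 2 rose and 4 did not pass, with a median of -0.73, beside 21.7% of all probes that fell, 26% that rose and a median of 0.05. KRT6C (-3.45 ± 0.12, adjusted p = 1.32e-13), KRT6B (-3.26 ± 0.17, adjusted p = 2.58e-11), KRT17 (-3.20 ± 0.10, adjusted p = 7.87e-14) and KRT6A (-2.54 ± 0.08, adjusted p = 3.47e-14) had the largest falls (SE, limma). The signal of KRT6A was 38770 at 0 h and 5058 at 45 h, and that of KRT17 20360 and 2339. The KRT6 transcripts are closely related, so their probes may not be independent of one another, and cross-hybridisation was not tested. KRT4, a keratin of the oesophagus and other internal linings, rose by 2.003 ± 0.22 (SE, limma, adjusted p = 2.77e-07), and KRT15, a basal keratin, by 1.61 ± 0.15 (SE, limma, adjusted p = 5.97e-08). Within the sets of 4 arrays 1 keratin, KRT17, fell (-2.66, limma, adjusted p = 0.0172) and 0 rose. Without the 45 h array, or with array weights, 4 rose.

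Of 39 transcription factors that act in squamous differentiation or on SPRR promoters, 37 had a probe and 34 were tested, of which 3 fell, 12 rose and 19 did not pass, with a median of 0.22, beside 21.7% of all probes that fell and 26% that rose. FOSL1, an AP-1 subunit, had the largest fall (-1.51 ± 0.32, adjusted p = 0.000536), followed by the ETS factors ETS1 (-0.64 ± 0.26, adjusted p = 0.046) and EHF (-0.31 ± 0.12, adjusted p = 0.0371). The log2 level of FOSL1 was 8.24 at 0 h, 6.53 at 3 h and 7.19 at 12 h, with 6.05 on the 21 h array and 5.95 on the last, so its largest change came in the first 3 h. That of ETS1 was 9.70 at 0 h, 7.88 at 6 h and 8.36 at 45 h. EHF was at 10.51 at 0 h, 11.26 at 6 h and 10.82 at 45 h, so it ended above its start although its linear change was negative. The largest rises were of MAF, a bZIP factor (2.38 ± 0.19, adjusted p = 6.87e-09, detected on 9 arrays), ELF3, an epithelial ETS factor (1.85 ± 0.13, adjusted p = 1.54e-09), the Krüppel-like factor KLF5 (1.10 ± 0.14, adjusted p = 1.51e-06) and ETS2 (1.03 ± 0.15, adjusted p = 8.21e-06). ELF3 went from a signal of 7080 at 0 h to 29350 at 45 h. These are SEs and adjusted p-values from limma. TP63, POU2F3 and POU3F1, the latter pair being octamer-binding factors, were not detected on any array. Within the sets of 4 arrays 0 factors fell and 0 rose, and EHF was at 0.77. Without the 15 h array 1 factor fell, and with a straight line in place of the cubic also 1. ETS1 and EHF did not pass with the straight line (limma, adjusted p = 0.0778 and 0.119), nor without some single arrays, the 0 h array among them for ETS1.

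**Figure D3:**
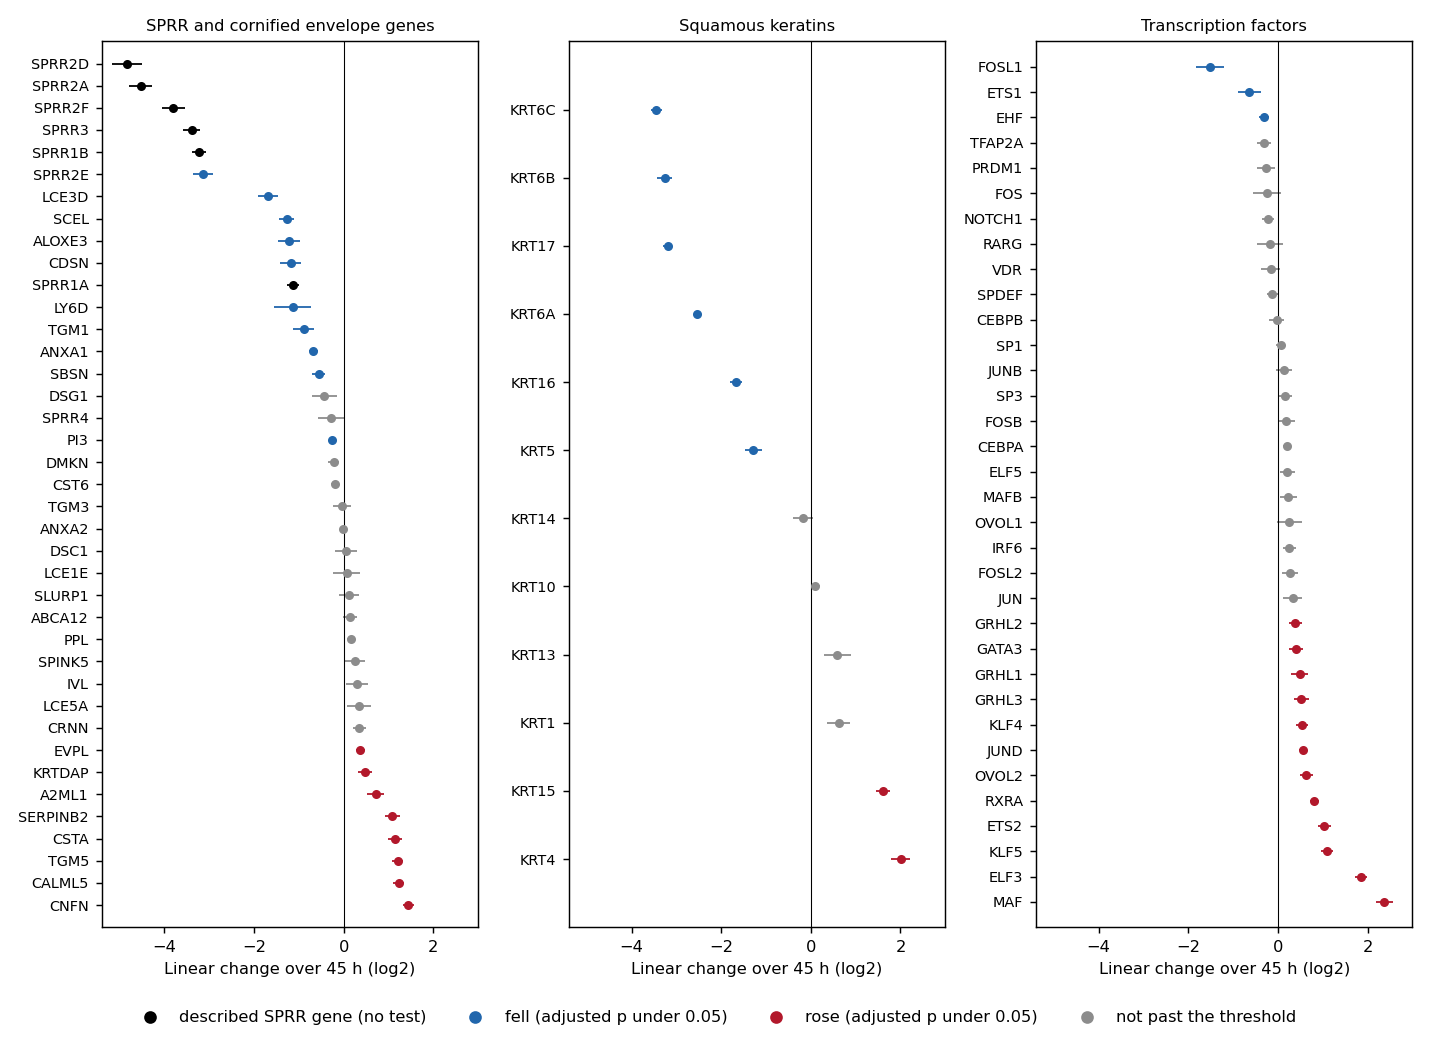
Linear change over 45 h (log2, bars show the SE of the fit) of the tested SPRR and envelope genes, squamous keratins and transcription factors. The SPRR genes chosen for the description are black and carry no test, blue genes fell, red genes rose and grey genes did not pass the adjusted threshold. SPRR2D, SPRR2A and SPRR2F lie furthest to the left, while the envelope genes spread from LCE3D (-1.68) to CNFN (1.44).

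The SPRR genes were also set against their neighbours on chromosome 1, in RefSeq order from S100A10 to S100A1. Of 57 other protein-coding genes in this stretch 9 had no probe and 22 were not tested. Of the 26 tested 10 fell, 3 rose and 13 did not pass, with a median of 0.04, and of all probes 21.7% fell and 26% rose. Next to SPRR2E, the largest falls were of S100A3 (-1.95 ± 0.28, adjusted p = 9.4e-06), LCE3D and S100A9, a subunit of calprotectin (-1.57 ± 0.10, adjusted p = 4.13e-10), and the other subunit, S100A8, fell by 1.01 ± 0.09 (adjusted p = 3.3e-08), all with SE from limma. S100A11 rose by 0.38 ± 0.07 (SE, limma, adjusted p = 7.8e-05), S100A7, psoriasin, by 0.72 ± 0.11 (SE, limma, adjusted p = 3.16e-05) and TCHHL1, detected on 5 arrays, by 0.90 ± 0.28 (SE, limma, adjusted p = 0.0127). Between 21 and 24 h, when the SPRR2 probes stepped down, S100A9 changed by -0.22, S100A8 by 0.04 and S100A3 by 0.35. LCE3D changed by -0.92 over that interval, S100A7A by -0.97, SPRR4 by -0.805 and LCE1E by -0.795. In the other direction S100A4 changed by 0.85 and LCE5A by 0.53. S100A7A, SPRR4, LCE1E and LCE5A were dim, with signals of 210.5 to 223 at 0 h. SPRR4 and IVL, the nearest tested genes on one side of the SPRR genes described, did not pass.

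**Figure D4:**
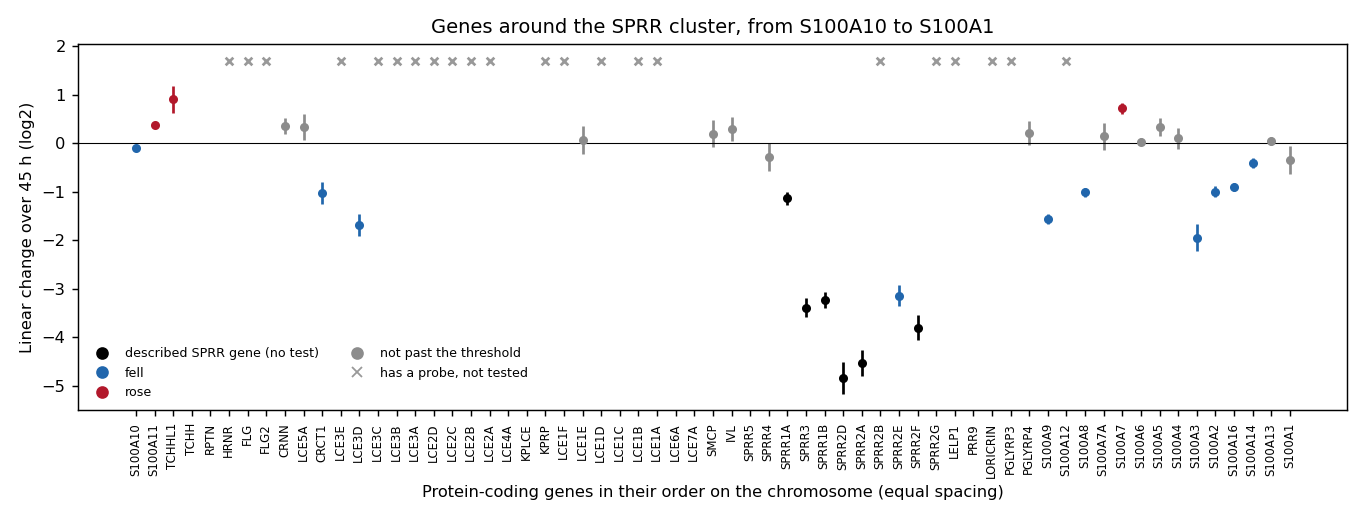
Linear change over 45 h (log2, bars show the SE of the fit) of protein-coding genes in their order on chromosome 1, equally spaced. Black points are the chosen SPRR genes, blue fell, red rose, grey did not pass, and a cross marks a gene with a probe that was not tested. The chosen SPRR genes, picked for low late levels, lie between -4.84 and -1.14. The neighbours SPRR2E, S100A3, LCE3D and S100A9 lie below SPRR1A, which is at -1.14.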

How the data were processed

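RNA from 16 cultures, 1 per time point, was measured on Illumina bead arrays. The study's methods name a Ref8 array for its time courses and quantile normalization, while the labels of these samples give no array version, and the scanning software is not given in the sources used here. The deposited table holds linear signal intensities, which the authors had neither background corrected nor normalized, and a deposited detection p-value per probe and array. No column of per-sample values was left unused.

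Signals were processed with neqc of limma 3.58.1 in R 4.3.3 (normexp with the negative controls inferred from the detection p-values, offset 16, quantile normalization, log2). Folds of dim probes are limited by the offset and the background. A probe entered the fit if its detection p was under 0.05 on 3 or more arrays, which kept 16110. Each course was described by a cubic in hours (lmFit, and eBayes with a trend on intensity), whose first-order term, scaled to 45 h, is the linear change. Two-sided p-values were adjusted over these probes (Benjamini-Hochberg, threshold 0.05). With 1 array per time point, the error is the deviation around the fitted course, true change outside a cubic included, and precision is limited by the number of arrays. The fit was checked on simulated data with independent noise and straight-line changes. The simulation held no sets of arrays, so the check says nothing about calls in data that have them. A gene with several probes was read from its brightest one on average.

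The 6 genes, the gene lists and the sets of 4 arrays were chosen with earlier results of these data known. Named were all probes of the 6 genes, from each list the 4 largest rises and the 4 largest falls past the threshold, the 5 genes with the most similar course, and listed genes that were not detected. TGM1, IVL, LCE1E, LCE5A, the S100 genes, TCHHL1 and the window of neighbours were chosen after values were seen. Of 18631 symbols 91% matched RefSeq (GRCh38.p14) directly or through an unshared synonym, and LOR was taken as loricrin. Motifs and identities were computed in Python 3.11.15, and figures were drawn with matplotlib 3.10.9.

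Settings tried instead were uncorrected background (with a floor of 16), a larger offset (50), cyclic loess or median scaling for the quantiles, the filter dropped or raised to all 16 arrays, a straight line for the cubic, array weights, sets of 4 arrays as a factor, the probe with most detections, and leaving out each array.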

Additional observations from a re-analysis of the deposited data

How the results depend on the processing

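No paired analysis was possible because no time point had a second array. The median linear change of the 6 SPRR probes, -3.59, was -2.56 without background correction, -3.25 with an offset of 50, -3.23 with detection required on all 16 arrays, which left 3 of the probes, and -2.10 with the sets of 4 arrays as a factor, and between -3.88 (without 0 h) and -3.50 when 1 array was left out. On the deposited signal, chosen after seeing the data, 4 of 6 had no overlap between the periods up to 21 h and from 24 h on, against 6 on normalized values and 6 with each array left out. The 1 further SPRR gene that fell became 2 without a filter, 0 with detection on all 16 arrays and 0 with the sets as a factor. With the sets as a factor 77 probes fell and 68 rose over the whole table, against 3495 and 4190, and the counts became 0 for envelope genes that fell (from 9) and 1 for those that rose (from 8), 0 for transcription factors that fell (from 3) and 0 that rose (from 12), and 1 for keratins that fell (from 6) and 0 that rose (from 2). There CDSN (0.59), SBSN (0.079), LY6D (0.016), ALOXE3 (0.59), EHF (0.77), GRHL3 (-0.17), GATA3 (-0.042) and KRT5 (0.091) had the opposite sign and none was past the threshold, and SPRR4, not past it in either fit, was at 1.16. A straight line left 1 transcription factor that fell, and array weights gave 4 keratins that rose. With each array left out, between 8 and 10 envelope genes fell and 7 to 9 rose, 1 (without 15 h) to 4 factors fell and 9 (without 3 h) to 12 rose, 6 keratins fell in every case, and 2 to 4 (without 45 h) rose. The other probe of PRDM1 rose by 0.70 (limma, adjusted p = 0.0105) where the main one was at -0.27. The cause of these shifts was not tested. Signal over background limits the SPRR2 values at 45 h.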
